A study of Mus musculus with 4 samples.

Results

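The set described here is 18 genes that were close to silent in wild-type megakaryocytes and were on in both Gfi1b knockouts. They are the protein-coding genes under 1 CPM (CPM is a gene's count scaled to the total of its library's gene counts) in both wild-type libraries and at least 5 CPM in both knockout libraries. Of 41214 gene identifiers counted, 21474 were protein-coding, and 9919 of these were under 1 CPM in both wild-type libraries. The rule left out symbols that begin with Wnt, Fzd, Col, Lam, Adamts, Fb, Serpin, Hb, Kcn, Cacn, Trp, Arhg or Kif, the genes Sparc, Rasgrp3, Palld, Plvap and Procr, and all genes on X and Y, and so kept 8884 genes as the base. The 18 genes are 0.203% of that base. Without the exclusions, 30 protein-coding genes met the limits, so 12 were left out. The genes were thus selected on their levels in the 4 libraries, and the difference between knockout and wild-type is given below as a description, without a test.

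Megakaryocytes are the bone marrow cells that shed platelets. Cells without lineage markers that carried cKit, CD41 and CD61 were taken by sorting from tibiae, femora and humeri of C57Bl/6 mice aged 8 weeks. RNA was sequenced from 4 groups of 1 library each: Gfi1b wild-type with PF4-Cre, Gfi1b knockout with PF4-Cre, Gfi1b wild-type with ROSA-Cre and Gfi1b knockout with ROSA-Cre. PF4-Cre is driven by the promoter of the platelet factor 4 gene, which is active in the megakaryocyte lineage, while ROSA-Cre names a Cre at the widely expressed Rosa26 locus. The wild-type libraries are labelled with the same Cre as their knockout. The labels do not say how many mice gave each library, or how and when a Rosa26 Cre was induced.

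GFI1B is a zinc finger repressor of the megakaryocyte and red cell lineages. It binds DNA at sites with an AATC core and recruits the histone demethylase LSD1 with CoREST and histone deacetylases, which take active marks off nearby chromatin. It is known to repress its own gene and that of its relative Gfi1. A gene that is silent in a cell can be held off by such a repressor, by Polycomb, by DNA methylation, or only by the lack of its activators.

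Promoters of the genes were read at annotated start sites, and the gene counts do not show which start was used. RefSeq windows of 300 bases (250 before and 50 after a start site, mouse build GRCm38.p6) were found for 15 of the 18 genes, in 24 windows, since some genes have several starts. Abcc3, Nrep and Ndnf were not matched. The 250 bases before a start site are printed for Tmem215, the most abundant member, for Cdhr1, which was near 0 in both wild-types, and for the 3 windows with an AATCAC match before the start site. Capitals mark AATCAC, which extends the AATC core of the GFI1 and GFI1B motif, or its reverse complement GTGATT. They also mark CCACCC, the motif of KLF factors, or its reverse complement GGGTGG. The shorter AATC core was neither searched for by itself nor marked.

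Tmem215: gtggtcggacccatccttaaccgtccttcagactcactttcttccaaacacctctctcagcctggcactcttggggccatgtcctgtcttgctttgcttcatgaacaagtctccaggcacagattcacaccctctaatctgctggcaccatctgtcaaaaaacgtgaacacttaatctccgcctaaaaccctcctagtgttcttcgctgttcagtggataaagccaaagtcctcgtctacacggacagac
Cdhr1: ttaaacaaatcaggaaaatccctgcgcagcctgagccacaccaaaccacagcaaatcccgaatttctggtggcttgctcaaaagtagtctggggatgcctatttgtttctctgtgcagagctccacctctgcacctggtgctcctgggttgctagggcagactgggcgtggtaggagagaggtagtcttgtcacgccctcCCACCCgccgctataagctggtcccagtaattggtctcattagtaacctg
Ctnna3: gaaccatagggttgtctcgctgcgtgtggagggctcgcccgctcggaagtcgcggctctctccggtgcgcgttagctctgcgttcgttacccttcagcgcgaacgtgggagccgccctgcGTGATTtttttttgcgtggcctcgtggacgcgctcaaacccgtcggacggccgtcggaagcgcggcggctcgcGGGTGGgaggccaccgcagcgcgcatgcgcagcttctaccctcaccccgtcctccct
Zfp37: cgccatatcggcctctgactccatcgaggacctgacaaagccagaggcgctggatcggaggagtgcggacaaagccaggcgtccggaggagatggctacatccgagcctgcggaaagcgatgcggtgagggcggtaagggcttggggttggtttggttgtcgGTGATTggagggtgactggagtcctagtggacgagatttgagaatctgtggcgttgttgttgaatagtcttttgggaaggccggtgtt
Nhsl1: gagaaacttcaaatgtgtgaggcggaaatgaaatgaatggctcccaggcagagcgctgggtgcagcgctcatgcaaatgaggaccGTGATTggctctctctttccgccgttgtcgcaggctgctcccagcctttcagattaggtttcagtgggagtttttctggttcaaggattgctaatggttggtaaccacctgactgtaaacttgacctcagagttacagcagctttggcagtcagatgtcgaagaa

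The Tmem215 window printed lies at chr4:40471930-40472179 on the plus strand, directly before the annotated gene, and held none of the 6 motifs searched. This does not mean that the shorter AATC core is missing, since it occurs in the printed stretches of both Tmem215 and Cdhr1. A second window of Tmem215, from 40472880 to 40473179, held CCACCC 44 bases after its start site. The Cdhr1 window lies at chr14:37098348-37098597 on the minus strand and held CCACCC 50 bases before the start site. The Ctnna3 window is chr10:63429848-63430097 on the plus strand, that of Zfp37 chr4:62208203-62208452 on the minus strand and that of Nhsl1 chr10:18469731-18469980 on the plus strand. In these, the AATCAC match began 130, 88 and 165 bases before the start site. The Zfp37 and Nhsl1 start sites lie 22845 and 150996 bases inside the annotated gene. The start site of Sox5, not printed, lies 834871 bases inside. A further match lay 28 bases after a start site of Cnr1, in a stretch that is not printed.

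Over the 24 windows and on both strands, AATCAC was found in 4 (16.7%). It was found in 11.9% of 7320 windows of the other silent protein-coding genes and in 10.4% of all 32851 windows of the table. The longer form TAAATCAC, which contains AATCAC, was in 0 of the 24 windows and in 0.628% of the windows of the other silent genes. AGATAA, the GATA motif, was in 1 window (4.17%, against 13.5% of the other silent genes), and CCGGAA, the ETS motif, in 2 (8.33%, against 6.86%). TATAAA, the TATA box, was in 2 windows (8.33%, against 20%), and CCACCC in 9 (37.5%, against 30.9%). With so few windows, 1 match more or less moves a share by 4.17 percentage points, and a match describes letters, not a bound site.

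CpG is the dinucleotide that vertebrate DNA methylation acts on. In the 24 windows, some of which belong to the same gene, the median ratio of observed to expected CpG was 0.509, against 0.264 in the windows of the other silent genes and 0.384 in the whole table. A ratio over 0.6 was found in 11 of 24 windows (45.8%), against 21.5% and 35.8%. The highest, 1.16, was that of the Ctnna3 window printed above. The genes were also longer than other silent genes, with a median exonic length of 6071 bases against 2524, and a median span of 34.3 kb against 10.4 kb. Protein-coding genes with enough counts to be tested for genotype stood between, at 4462 bases and 24 kb. The limits of 1 and 5 CPM are not set per length.

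The libraries held 61652843 and 59595680 gene counts in the PF4-Cre wild-type and knockout and 24869421 and 21835165 in the ROSA-Cre pair. A level of 1 CPM stood for 61.7, 59.6, 24.9 and 21.8 counts in that order, so under 1 CPM means few reads and not none. Counts over the whole Gfi1b gene were higher in the libraries labelled knockout, at 10137 and 84744 in the PF4-Cre pair and 5864 and 55122 in the ROSA-Cre pair. They do not show which exons were present and so do not check the deletion. Knockout and wild-type below are the names the labels give. Markers of megakaryocytes were high in all 4 libraries, with summed levels of 6801, 7943, 9742 and 6846 CPM over 15 genes. Lists of 4 values here and below give the PF4-Cre pair and then the ROSA-Cre pair, each with its wild-type before its knockout.

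Nearly all of the 8884 silent genes stayed under 5 CPM in each knockout. Taking the lower of the 2 knockout levels for each gene, 6630 were at 0, and 151 lay between 1 and 2 CPM, 58 between 2 and 5, 11 between 5 and 10, 5 between 10 and 20 and 1 between 20 and 50. A single gene, Tmem215, stood between 100 and 500 CPM, and none between 50 and 100. The limit of 5 CPM was passed by 37 genes (0.416%) in the PF4-Cre knockout and by 31 (0.349%) in the ROSA-Cre knockout. The 18 genes are thus 48.6% of the first list and 58.1% of the second. The opposite pattern, at least 5 CPM in both wild-type and under 1 CPM in both knockout libraries, was met by 0 of 8600 genes.

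**Figure D1:**
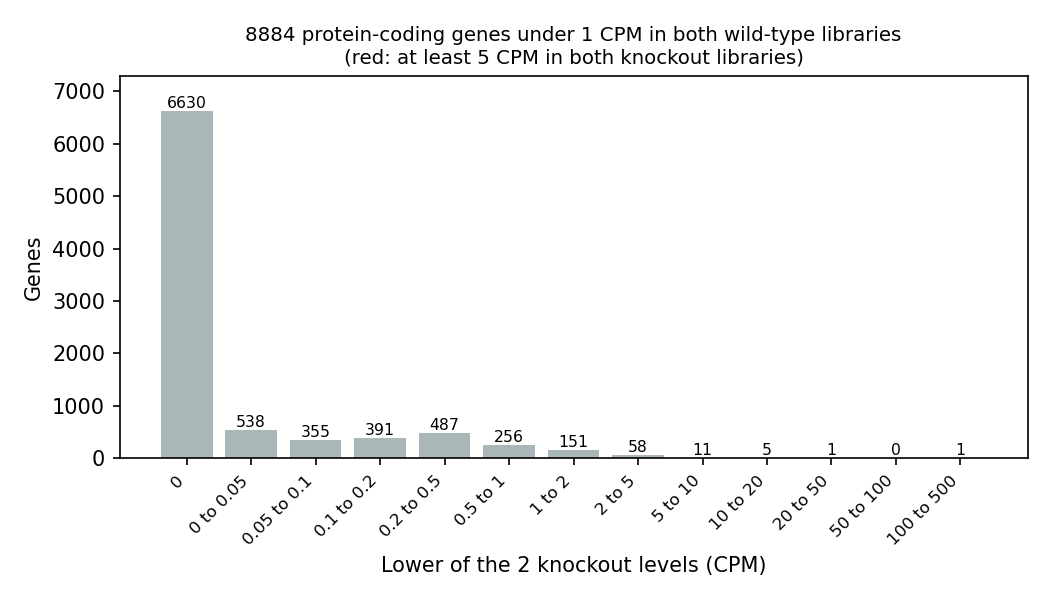
Number of genes (vertical axis) by the lower of the 2 knockout levels in CPM (horizontal axis, in bins) among the 8884 protein-coding genes under 1 CPM in both wild-type libraries. The 18 genes at 5 CPM or more are the last filled bins, with 11, 5, 1 and 1 genes, against 6630 genes at 0.

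The genes next to the limits show where the set was drawn. Just inside the knockout limit stood Zfp37, Zfp658 and Ndnf, whose lower knockout levels were 5, 5.08 and 5.17 CPM. Just outside it stood H2afy2 and Boc at 4.72 CPM each and Qrfp at 4.67 CPM. On the wild-type side, the higher wild-type levels of Abcc3, Cnrip1 and Nhsl1 were 0.965, 0.957 and 0.885 CPM, and those of Hif3a, Zfp334 and Ccser1, just outside, were 1.09 CPM each.

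Summed over the 18 genes, the level was 8.13 CPM in the PF4-Cre wild-type and 706 CPM in its knockout, and 8.16 CPM in the ROSA-Cre wild-type and 545 CPM in its knockout. Tmem215 made up 65.6% and 60.2% of the sum in the knockouts. Without it the sums were 7.53, 243, 7.60 and 217 CPM. The median gene was at 0.462, 10.3, 0.483 and 8.22 CPM. The groups do not overlap for any of the genes, which the rule fixes. In bulk RNA, more cells of a type that express a gene and more RNA per cell cannot be told apart.

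**Figure D2:**
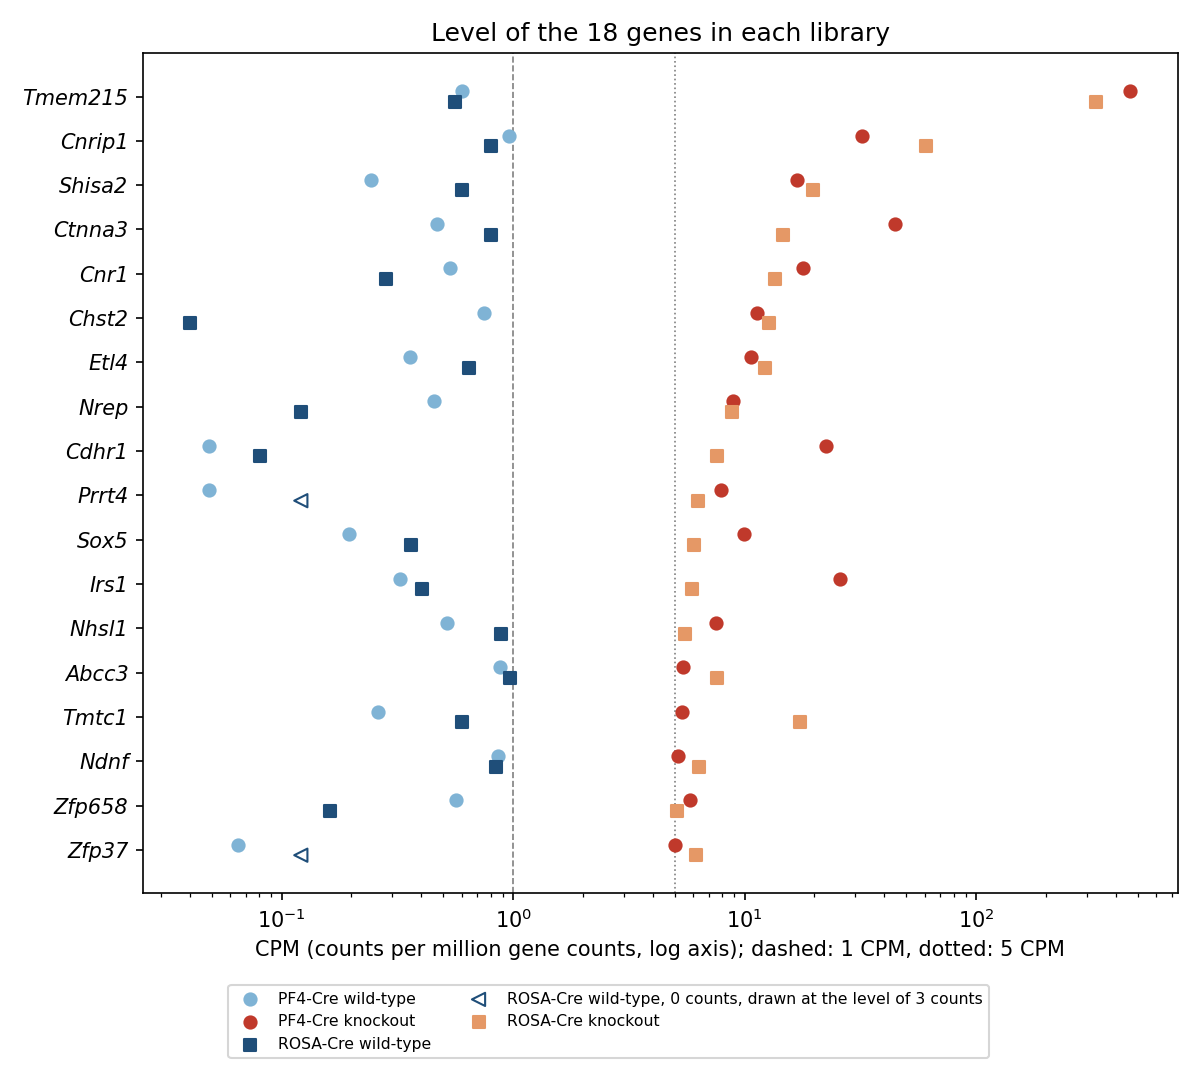
Level of each of the 18 genes in CPM (log axis) in the 4 libraries, 1 point per library, with genes ordered by the lower knockout level. Wild-type points lie left of the dashed line at 1 CPM and knockout points right of the dotted line at 5 CPM, and Tmem215 stands apart at 464 and 328 CPM.

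Tmem215 encodes a small transmembrane protein about which little is known. It is a gene of 2 exons at chr4:40472180-40477168 (GRCm38, GENCODE annotation, plus strand). It had 37, 27630, 14 and 7168 counts, or 0.6, 464, 0.563 and 328 CPM. Both wild-type libraries were low and alike, and both knockout libraries were high. The knockout level was 773 times the wild-type level in the PF4-Cre model (95% Clopper-Pearson interval 560 to 1097) and 583 times in the ROSA-Cre model (347 to 1067). These intervals, like all those below for ratios within a model, cover counting error of 2 libraries only. Ranked per kilobase of exon among the 21474 protein-coding genes, Tmem215 went from place 11996 to place 341 in the PF4-Cre pair and from 12101 to 501 in the ROSA-Cre pair. Its levels per kilobase in the knockouts were 97.8 and 69.2 CPM, and the next member on that scale, Cnrip1, was at 8.05 and 15.3 CPM.

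The symbols of the Tmem series name transmembrane proteins by structure and not by shared function. Of 238 such genes, 90 were silent in the wild-type libraries by the same limit, and Tmem215 alone is in the set. Of the 171 others tested, 26 were higher and 6 lower in the knockouts by the quasi-likelihood test of edgeR (adjusted by Benjamini-Hochberg), against 12.6% higher and 9.59% lower among all 15063 genes tested. Tmem158 had 1006, 3910, 667 and 2568 counts and rose by 2.01 in log2 units (SE 0.14, adjusted p = 0.000299).

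Cell adhesion was represented by Cdhr1, Ctnna3 and Tmtc1. Cdhr1, a protocadherin best known from the outer segments of photoreceptors, lies at chr14:37077857-37098347 on the minus strand. It had 3, 1339, 2 and 165 counts, or 0.0487, 22.5, 0.0804 and 7.56 CPM. The wild-type libraries together held 5 counts, and the PF4-Cre knockout was the highest of the 4. The ratio was 462 (158 to 2242) in the PF4-Cre and 94.0 (25.6 to 782) in the ROSA-Cre model, with wide intervals because of the few wild-type counts.

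Ctnna3 encodes alpha-T-catenin, which ties cadherins to actin and is best known from heart muscle. It had 29, 2667, 20 and 319 counts, or 0.470, 44.8, 0.804 and 14.6 CPM, over a gene of 1574 kb. Both knockouts were above both wild-types, and the PF4-Cre knockout was again the higher. The ratios were 95.1 (66.1 to 142) and 18.2 (11.6 to 30.1).

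Tmtc1 encodes an enzyme of the endoplasmic reticulum that adds O-linked mannose to cadherins. Its counts were 16, 320, 15 and 380, or 0.260, 5.37, 0.603 and 17.4 CPM. Here the ROSA-Cre knockout was the higher. The pseudogene Rps4l lies within the span of Tmtc1 on the opposite strand, with 558, 748, 312 and 397 counts, and shares 0 exonic bases with it.

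Relatives of these adhesion genes were looked up as a list drawn up with the 18 genes and earlier results of these data known. Of the other Cdhr genes, Cdhr2, Cdhr3 and Cdhr5 had at most 3 counts in any library. Cdhr4 went from 30 to 195 and from 27 to 88 counts, a log2 rise of 2.31 (SE 0.38, adjusted p = 0.00841). The alpha-catenin Ctnna1 (log2 fold change 0.40, SE 0.16, adjusted p = 0.119), the related Ctnnal1 (0.25, SE 0.12, adjusted p = 0.173) and beta-catenin, Ctnnb1 (0.02, SE 0.14, adjusted p = 0.935), did not pass the test. Ctnna2 had 0 counts in all libraries. The enzymes Tmtc2, Tmtc3 and Tmtc4 were at log2 fold changes of 0.01, -0.01 and -0.14 (SE 0.24, 0.16 and 0.18) and did not pass either.

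Among the 72 protein-coding genes of the cadherin superfamily, 59 were silent in the wild-type libraries, and Cdhr1 is the member of the set. Of 18 others tested, 5 rose (27.8%) and 1 fell (5.56%), against 12.6% and 9.59% of all genes tested. Their median log2 fold change was 0.34, against -0.02 over all genes tested. Fat1, a giant cadherin, had 91, 426, 31 and 153 counts and rose by 2.29 (SE 0.30, adjusted p = 0.00394). Pcdh19 had 8, 74, 5 and 18 counts and rose by 2.79 (SE 0.54, adjusted p = 0.0137). Its knockout libraries alone passed the filter on low counts, which fixed the direction of a call. Pcdh7 fell by 0.90 (SE 0.19, adjusted p = 0.0193).

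Both a cannabinoid receptor and a protein that binds it were in the set. Cnr1 encodes CB1, the cannabinoid receptor that is abundant in the brain. It had 33, 1060, 7 and 294 counts, or 0.535, 17.8, 0.281 and 13.5 CPM. The 2 knockouts were near each other and far above the wild-types, with ratios of 33.2 (23.5 to 48.5) and 47.8 (22.9 to 120).

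Cnrip1 encodes a small protein that binds the tail of CB1. It had 59, 1920, 20 and 1333 counts, or 0.957, 32.2, 0.804 and 61.0 CPM, with ratios of 33.7 (26.0 to 44.4) and 75.9 (49.0 to 125). It overlaps Plek, the gene of the abundant platelet protein pleckstrin, on the opposite strand, and 199 of its 4003 exonic bases are shared. Plek had 155399, 247532, 44302 and 92431 counts, of which the Cnrip1 counts would be 0.0380%, 0.776%, 0.0451% and 1.44%. The share was higher in both knockouts. Whether the counting used strand is not given in the sources used here, and the part of reads from Plek in the Cnrip1 counts was not tested.

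The rest of the endocannabinoid system did not move one way. Cnr2, the CB2 receptor of immune cells, was the receptor present in wild-type cells. It had 5752, 2309, 1971 and 197 counts and fell by 2.17 (log2 units, SE 0.38, adjusted p = 0.0103). Of 7 enzymes that make or break down endocannabinoids, 6 were tested, and 2 rose. Mgll, which breaks down 2-arachidonoylglycerol (2-AG), had 1248, 3205, 739 and 1261 counts and rose by 1.13 (SE 0.16, adjusted p = 0.00548). Abhd6, which has the same substrate, had 27, 59, 23 and 63 counts and rose by 1.34 (SE 0.40, adjusted p = 0.0495). Daglb, Napepld, Faah and Abhd12 had adjusted p-values from 0.0591 to 0.207.

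Signalling and transcription were represented by Irs1, Shisa2 and Sox5. Irs1 encodes the docking protein that passes on signals from the insulin and IGF1 receptors. It had 20, 1534, 10 and 130 counts, or 0.324, 25.7, 0.402 and 5.95 CPM. The wild-types were alike, and the PF4-Cre knockout stood above the ROSA-Cre knockout. The ratios were 79.3 (51.2 to 130) and 14.8 (7.80 to 31.6).

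Its relative Irs2 had 802, 761, 787 and 219 counts and did not pass the test (log2 fold change -0.85, SE 0.36, adjusted p = 0.132). The receptor genes Insr (0.39, SE 0.12, adjusted p = 0.0533) and Igf1r (0.25, SE 0.12, adjusted p = 0.188) did not pass either, and Irs4 had at most 3 counts in any library. Wild-type cells thus had counts of both receptors and of Irs2, and few of Irs1.

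Shisa2 encodes a protein that keeps Wnt and FGF receptors in the endoplasmic reticulum. It had 15, 1006, 15 and 430 counts, or 0.243, 16.9, 0.603 and 19.7 CPM, and the 2 knockouts were near each other. The ratios were 69.4 (41.9 to 124) and 32.7 (19.6 to 58.8). Of its relatives, 3 of 7 were tested and 2 rose. Shisa5 rose by 0.62 (SE 0.17, adjusted p = 0.0427). Shisa9 had 0, 54, 0 and 27 counts (adjusted p = 0.00635), which against a floor of 3 counts per library is at least 18.6-fold higher in the PF4-Cre and at least 10.3-fold higher in the ROSA-Cre knockout. Shisa9 stayed under the limit of 5 CPM. It passed the filter on low counts through its knockout libraries alone, so a rise was the only call open to it.

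Sox5 encodes a factor of the SOXD group with long and short forms, known from cartilage and red cell development. It had 12, 594, 9 and 132 counts, or 0.195, 9.97, 0.362 and 6.05 CPM. Its ratios were 51.2 (29.1 to 99.7) and 16.7 (8.54 to 37.3). Of the other SOXD genes, Sox13 rose by 0.78 (SE 0.18, adjusted p = 0.0254), and Sox6, at 711, 334, 213 and 190 counts, did not pass (-0.62, SE 0.31, adjusted p = 0.186). Among 130 homeobox and SOX genes 104 were silent in the wild-type libraries. Of 33 others tested, 16 rose (48.5%) and 2 fell (6.06%), against 12.6% and 9.59% of all genes tested. Their median log2 fold change was 0.91. Hoxa9 rose by 2.10 (SE 0.22, adjusted p = 0.00170), Hoxa7 by 1.75 (SE 0.24, adjusted p = 0.00470) and Hoxa5 by 2.17 (SE 0.35, adjusted p = 0.00792). Hoxb6 had 10, 131, 2 and 36 counts and rose by 3.80 (SE 0.50, adjusted p = 0.00385). Its knockout libraries alone passed the filter on low counts, which fixed the direction of a call.

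Enzymes and transporters were Chst2 and Abcc3. Chst2 encodes a sulfotransferase that adds sulfate to N-acetylglucosamine on carbohydrate chains such as selectin ligands. It had 46, 675, 1 and 278 counts, or 0.746, 11.3, 0.0402 and 12.7 CPM. The knockouts were alike and the wild-types were not. The ratio was 15.2 (11.3 to 20.9) in the PF4-Cre model and 317 in the ROSA-Cre model, where a single wild-type count leaves an interval from 56.4 to 12551.

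Of 13 other carbohydrate sulfotransferase genes 9 were tested, and 2 rose and 1 fell. Chst7 had 21, 139, 13 and 71 counts and rose by 2.65 (SE 0.40, adjusted p = 0.00600), and Chst15 had 456, 1250, 221 and 1153 counts and rose by 1.95 (SE 0.27, adjusted p = 0.00467). Chst13 fell by 1.47 (SE 0.34, adjusted p = 0.0250). Abcc3 encodes MRP3, an exporter of organic anions known from liver and gut. It had 54, 323, 24 and 166 counts, or 0.876, 5.42, 0.965 and 7.60 CPM, and its ratios of 6.19 (4.63 to 8.42) and 7.88 (5.12 to 12.6) were among the lowest of the set. Abcc1, Abcc4, Abcc5 and Abcc10 did not pass the test. Abcc2, at 37, 16, 26 and 1 counts, fell by 1.89 (SE 0.53, adjusted p = 0.0431).

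The next members are Etl4, Nrep, Nhsl1 and Ndnf. Etl4, also called sickle tail and known from the intervertebral discs, had 22, 635, 16 and 268 counts, or 0.357, 10.7, 0.643 and 12.3 CPM. Nrep, also called P311 and known from neurons and wound healing, had 28, 529, 3 and 193 counts, or 0.454, 8.88, 0.121 and 8.84 CPM. Nhsl1, a relative of the Nance-Horan syndrome gene that acts on actin, had 32, 447, 22 and 121 counts, or 0.519, 7.5, 0.885 and 5.54 CPM. In each, the 2 knockout libraries were within 1.35-fold of each other.

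Ndnf encodes a secreted neurotrophic factor. It had 53, 308, 21 and 139 counts, or 0.860, 5.17, 0.844 and 6.37 CPM, and the lowest ratio of the PF4-Cre model, 6.01 (4.48 to 8.21). In the ROSA-Cre model the lowest was that of Nhsl1, 6.26 (3.95 to 10.4). The ranges of the set were thus 6.01 to 773 and 6.26 to 583. A ratio of at least 10 was reached by 16 genes in the PF4-Cre and by 15 in the ROSA-Cre model.

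The last genes were Prrt4, Zfp37 and Zfp658. Prrt4, a proline-rich transmembrane protein about which little is known, had 3, 473, 0 and 137 counts, or 0.0487, 7.94, 0 and 6.27 CPM. It was the member with the fewest wild-type counts, with 3 in both wild-type libraries together. Its ratio was 163 (55.5 to 794) in the PF4-Cre model, and its level was at least 52.0-fold higher in the ROSA-Cre knockout, against the floor of 3 counts. The other Prrt genes had at most 11 counts in any library.

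Zfp37 and Zfp658 encode C2H2 zinc finger proteins of a large family with near-identical stretches, so their reads could have been split between copies and their counts are uncertain. Zfp37 had 4, 298, 0 and 134 counts, with a ratio of 77.1 (29.8 to 285) in the PF4-Cre model and a level at least 50.9-fold higher in the ROSA-Cre knockout. Zfp658 had 35, 345, 4 and 111 counts and ratios of 10.2 (7.19 to 14.9) and 31.6 (12 to 118). Both stood just above 5 CPM in a knockout, and neither met the limits when the libraries were scaled by TMM or by DESeq2 size factors.

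**Figure D3:**
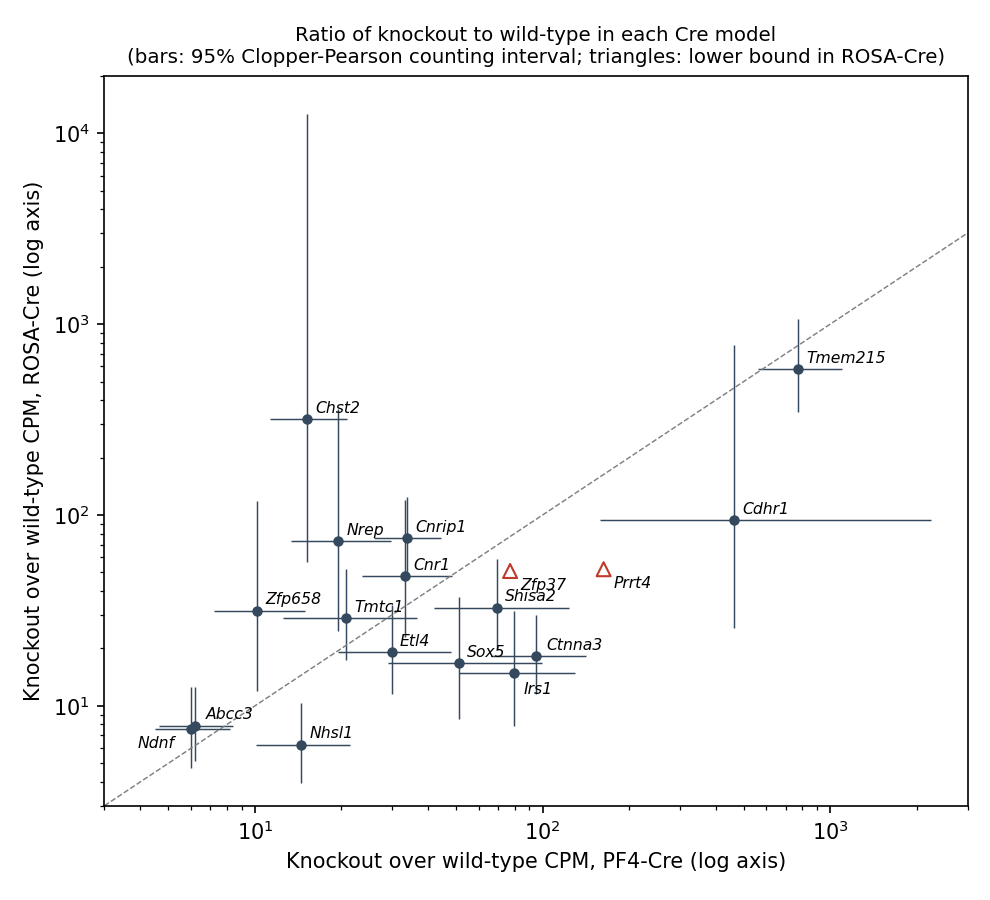
Ratio of knockout to wild-type CPM in the PF4-Cre model (horizontal, log axis) against the ROSA-Cre model (vertical, log axis) for the 18 genes, with 95% Clopper-Pearson counting intervals as bars, the line of equal ratios dashed, and triangles for Prrt4 and Zfp37, whose ROSA-Cre value is a lower bound. Tmem215 lies at 773 and 583, and Abcc3 and Ndnf lie between 6 and 8 in both.

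The contrast between the Cre models was not used to choose the genes and could be tested, although the requirement to pass the limits in both models favours genes with like levels. With a term for genotype in the fit, 18.7% of all 15063 genes differed between the models by the same test at an adjusted p under 0.05. Among the 18 genes the number was 4, or 22.2%, a share near that background. The test has 1 residual degree of freedom per gene. It reflects how far these 4 libraries depart from added effects of genotype and Cre model. The p-values rest on that and on a spread shared over genes, and do not measure a spread between replicates. The median log2 fold change of ROSA-Cre over PF4-Cre was -0.20 in the set and 0.02 over all genes, with 7 genes above 0 and 11 below. In the set the wild-type libraries held few counts, so the fitted effect mostly reflects the knockout levels that the rule used. For Cdhr1 it was -1.53, against log2 differences of -1.57 between the knockouts and 0.72 between the wild-types.

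Tmtc1 was higher in the ROSA-Cre libraries, by 1.61 (SE 0.32, adjusted p = 0.0180). In the knockouts its level there was 3.24 times that of the PF4-Cre library (2.79 to 3.77), and in the wild-types 2.32 times (1.07 to 5.02). For Cdhr1, Irs1 and Ctnna3 the fitted effect was negative. The value was -1.53 for Cdhr1 (SE 0.35, adjusted p = 0.0213), -1.85 for Irs1 (SE 0.43, adjusted p = 0.0283) and -1.24 for Ctnna3 (SE 0.27, adjusted p = 0.0236).

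For these 3 genes the PF4-Cre knockout held 2.97 (2.53 to 3.52), 4.32 (3.61 to 5.21) and 3.06 (2.73 to 3.45) times the level of the ROSA-Cre knockout. In the wild-types the ROSA-Cre level of all 3 was the higher, at 1.65 (0.138 to 14.4), 1.24 (0.518 to 2.77) and 1.71 (0.917 to 3.13) times the PF4-Cre level, with intervals that included 1. The lower level was thus seen in the knockout libraries alone. The DESeq2 Wald test and the older quasi-likelihood method kept the call for Tmtc1 and none of the other 3. Ctnna3 also lost it when genes needed a mean of 5 CPM, and Irs1 when no filter on low counts was used. Leaving out any of the 4 libraries, or the genotype term, left 0 of the 18 genes called, since the genotype difference then enters the spread or the contrast.

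The other 14 genes did not pass the test, which does not show that they were equal. Tmem215 came nearest, at -0.46 (SE 0.16, adjusted p = 0.0869), with a PF4-Cre knockout level 1.41 times that of the ROSA-Cre knockout (1.38 to 1.45). Cnrip1 was at 0.65 (SE 0.27, adjusted p = 0.130), with a ROSA-Cre knockout level 1.89 times the other (1.77 to 2.03). Etl4, Nrep and Chst2 were at 0.29, -0.20 and -0.20 (SE 0.32, 0.35 and 0.47). Between the 2 knockout libraries, counting intervals lay above 1 for 5 genes and below 1 for 8 genes (ROSA-Cre over PF4-Cre), and included 1 for 5. Between the 2 wild-types they included 1 for 13 of 18. Shisa2 and Tmtc1 were higher in the ROSA-Cre wild-type, and Chst2, Nrep and Zfp658 lower.

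**Figure D4:**
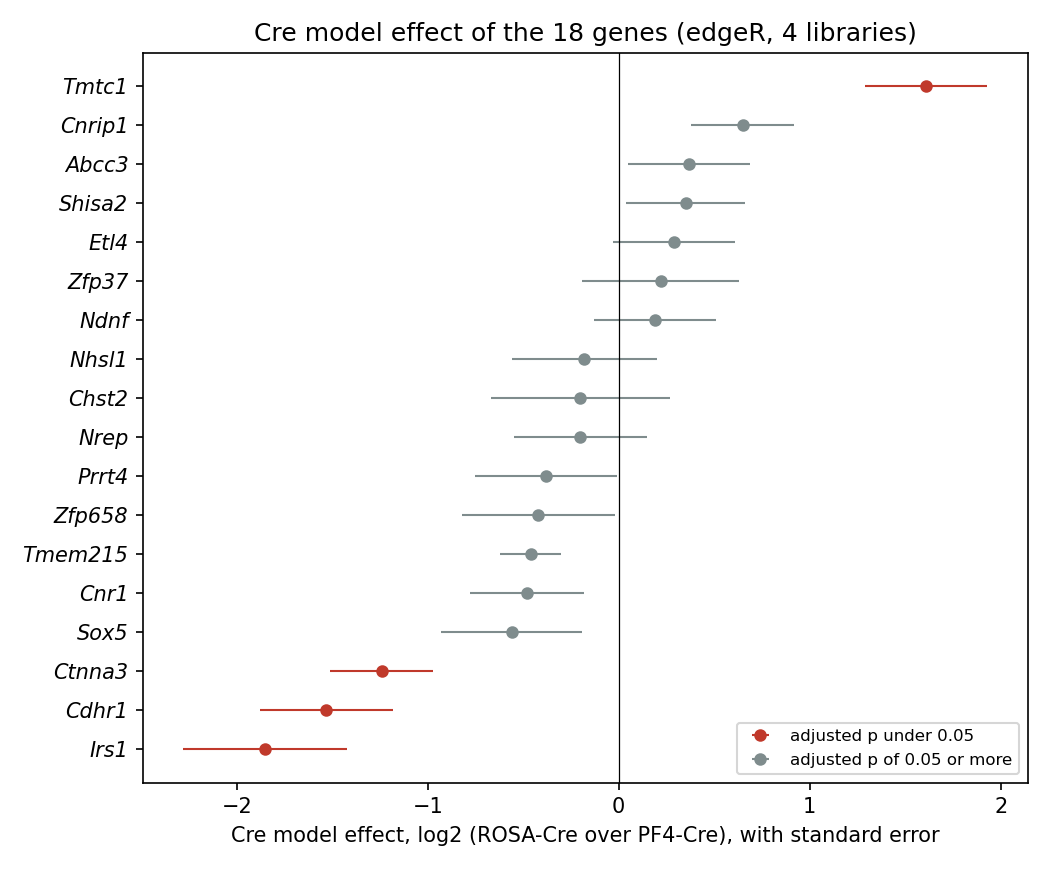
Cre model effect of the 18 genes, as the log2 fold change of ROSA-Cre over PF4-Cre libraries (horizontal axis) with its standard error as a bar, from the edgeR fit to 4 libraries. Tmtc1 lies at 1.61 and Ctnna3, Cdhr1 and Irs1 between -1.24 and -1.85 (red, adjusted p under 0.05), with the other 14 genes in grey.

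Genes that passed 5 CPM in a single knockout show what the requirement of both left out. There were 19 in the PF4-Cre knockout (0.214%) and 13 in the ROSA-Cre knockout (0.146%). They are named here after their values were seen. Stab1, a scavenger receptor of sinusoidal endothelium, had 18, 1065, 8 and 4 counts and was on in the PF4-Cre knockout alone, at 17.9 CPM against 0.183 CPM in the other knockout. Fgf7, a growth factor made by mesenchymal cells, had 17, 725, 2 and 15 counts. Pi15, a secreted protease inhibitor, had 1, 193, 0 and 265 counts and was at 3.24 and 12.1 CPM in the 2 knockouts. Some of these genes fell just short of 5 CPM in the other knockout. Lsmem1 was at 11.2 CPM in the PF4-Cre and 4.44 CPM in the ROSA-Cre knockout, and Boc at 4.72 and 8.88 CPM. With 1 library per group, whether such genes differ between the models beyond the spread of replicates was not tested.

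Over all 59 relatives and pathway partners, 27 were silent in the wild-type libraries, 37 were tested, 8 rose and 3 fell. These shares, 21.6% and 8.11% of those tested, stand beside 12.6% and 9.59% of all genes. By DESeq2 7 rose and 1 fell. Cdhr4, Chst7, Chst15, Mgll, Abhd6, Sox13, Shisa5 and Shisa9 rose, and Cnr2, Chst13 and Abcc2 fell. Shisa9 entered the test through its knockout libraries alone.

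**Figure D5:**
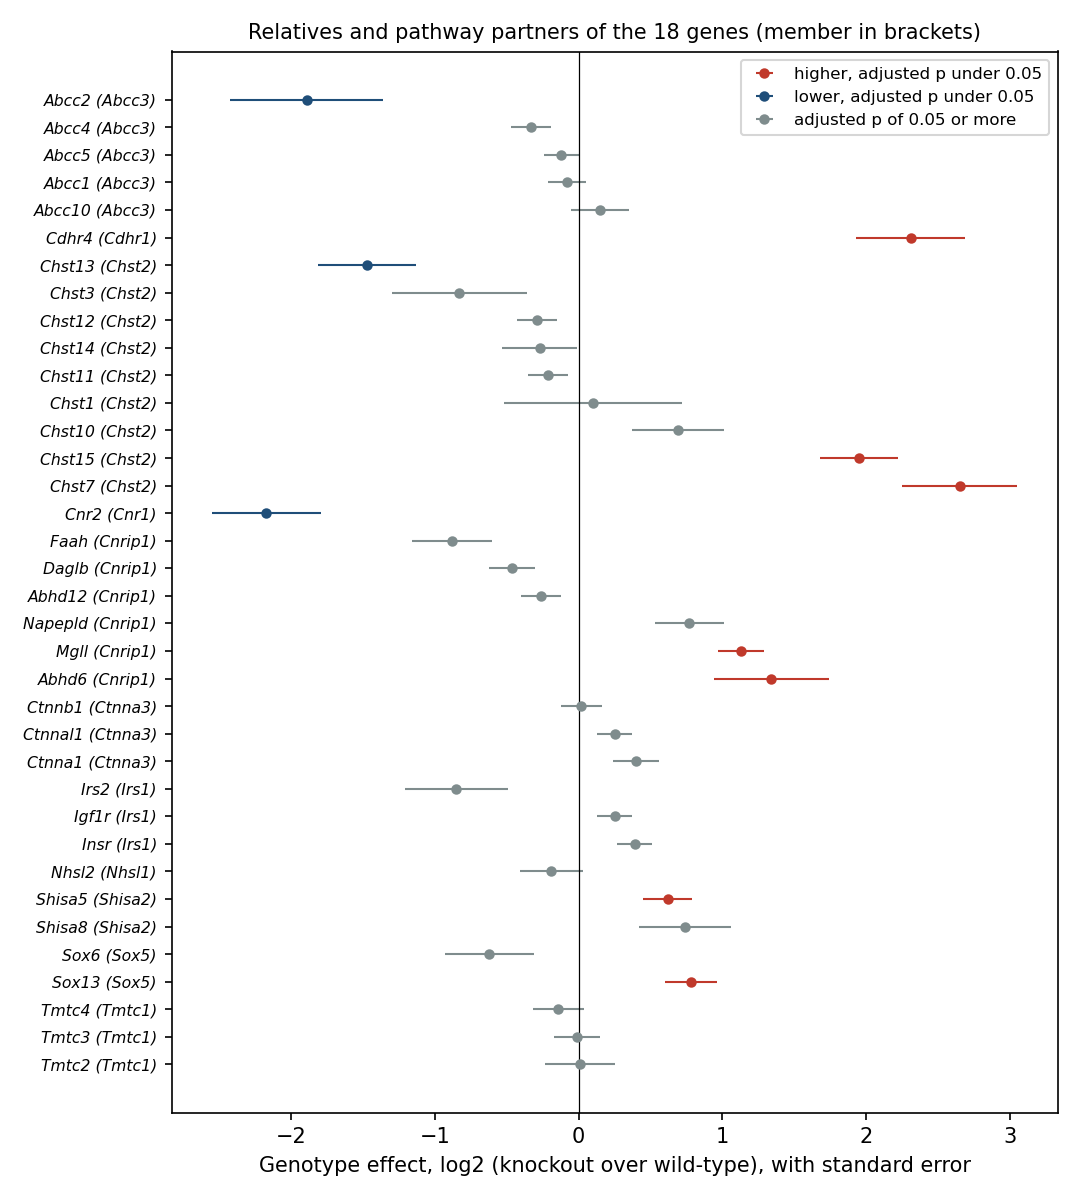
Genotype effect of the tested relatives and pathway partners, as the log2 fold change of knockout over wild-type (horizontal axis) with its standard error as a bar and the member each belongs to in brackets. Shisa9 is not drawn, since its wild-type libraries were at 0. Points passing the test run from -2.17 for Cnr2 to 2.65 for Chst7.

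The members were scattered over 10 chromosomes, with 4 on chromosome 6 and 3 on chromosome 4. The closest pair was Sox5 and Tmtc1, 3.45 Mb apart, and the next Cnr1 and Tmem215, 6.52 Mb apart. The nearest protein-coding gene on each side gave 36 neighbours, of which 29 were tested. Of these 5 rose (17.2%) and 0 fell, against 13.6% and 10.9% of all protein-coding genes tested (edgeR's quasi-likelihood test, adjusted p under 0.05). At an unadjusted p under 0.05 the number that fell was 3, and by the DESeq2 Wald test 4 rose and 0 fell.

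The closest of the genes that rose was 2610528A11Rik, 3.79 kb from Cdhr1. It had 9, 145, 2 and 21 counts and rose by 3.88 (log2 units, SE 0.51, adjusted p = 0.00318). It passed the filter on low counts through its knockout libraries alone, so its call was fixed in direction and adds no support. On the other side of Cdhr1, Lrit2, 4.11 kb away, had 0 counts in all libraries. Tnip3, an inhibitor of NF-kappaB signalling 37.5 kb from Ndnf, had 719, 3246, 162 and 1402 counts and rose by 2.65 (SE 0.26, adjusted p = 0.00137). Spaca1, 76.0 kb from Cnr1, Ccdc28a, 84.0 kb from Nhsl1, and Slc9a9, 169 kb from Chst2, rose by 1.21 (SE 0.32, adjusted p = 0.0364), 1.01 (SE 0.21, adjusted p = 0.0175) and 1.17 (SE 0.14, adjusted p = 0.00242). The neighbours of Tmem215, Ndufb6 at 193 kb and Aptx at 205 kb, did not pass the test (-0.47, SE 0.15, adjusted p = 0.0700, and 0.14, SE 0.20, adjusted p = 0.653).

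Genes of the machinery that keeps genes silent were read beside the set. Over all 15063 genes tested 12.6% rose and 9.59% fell by edgeR, and the lists were not tested against these shares. In a list of 16 partners of GFI1B in LSD1-CoREST repression, itself included, Gfi1b, Gfi1 and Phf21a rose and Rcor2 fell. Gfi1 had 471, 2416, 198 and 2128 counts. Kdm1a, which encodes LSD1, did not pass (-0.24, SE 0.12, adjusted p = 0.179). Of 27 Polycomb genes 4 rose, namely Jarid2 (0.67, SE 0.12, adjusted p = 0.0101), Ezh1 (0.95, SE 0.18, adjusted p = 0.0118), Phf1 (1.20, SE 0.25, adjusted p = 0.0173) and Phc3 (0.43, SE 0.12, adjusted p = 0.0453), and 0 fell in edgeR. At an unadjusted p under 0.05 the number of Polycomb genes that fell was 1, and by DESeq2 it was 0.

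Of 12 tested genes of DNA methylation 3 fell. These were Uhrf1, which guides the maintenance enzyme (-0.82, SE 0.14, adjusted p = 0.0103), that enzyme, Dnmt1 (-0.60, SE 0.15, adjusted p = 0.0287), and Dnmt3b (-0.53, SE 0.13, adjusted p = 0.0283). Tet2, an enzyme of demethylation, rose by 0.59 (SE 0.12, adjusted p = 0.0171). Of 11 genes of H3K4 methylation and activation, Crebbp rose by 0.65 (SE 0.14, adjusted p = 0.0185). The median log2 fold changes of the 4 lists were -0.04, 0.10, -0.14 and 0.04, against -0.02 over all genes tested.

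Several members are known from neurons or other tissues, so markers of other cell types were read in the same libraries. Calls in all marker lists stand beside 12.6% risen and 9.59% fallen over all genes tested by edgeR. Of 15 markers of neurons and photoreceptors, 10 had at most 3 counts in every library, among them Rbfox3, Syt1, Snap25, Prph2, Crx and Nrl. Without Cdhr1, the summed level of the list was 4.30, 5.59, 3.26 and 6.46 CPM. Rcvrn rose from 8 to 38 and from 6 to 20 counts (log2 fold change 2.07, SE 0.55, adjusted p = 0.0369 by edgeR), a call lost with the DESeq2 Wald test (adjusted p = 0.285). Over the edgeR alternatives its adjusted p ran from 0.0348 to 0.685, the highest without the PF4-Cre wild-type library. Cdhr1 is itself on this list, at 22.5 CPM in the PF4-Cre and 7.56 CPM in the ROSA-Cre knockout.

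Endothelial markers were present in all libraries, at summed levels of 2133, 2495, 3410 and 2694 CPM over 25 genes, some of which, such as Vwf and Pecam1, megakaryocytes also express. Of 18 tested 6 rose, namely Podxl, Egfl7, Emcn, Esam, Nos3 and Erg, and 0 fell in edgeR (1 at an unadjusted p under 0.05, 0 by DESeq2), while Sox17 and Mmrn2 had at most 3 counts in every library. The sum was higher in the knockout of the PF4-Cre pair and lower in that of the ROSA-Cre pair. Stroma markers summed to 49.7, 38.8, 49.1 and 45.2 CPM over 16 genes, with 2 higher and 3 lower of 10 tested.

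Epithelial markers summed to 19.1, 28.8, 18.7 and 52.9 CPM over 8 genes, and Krt18 alone of 4 tested rose. Stem cell markers, 8 genes with 595, 818, 499 and 928 CPM, rose in 4 and fell in 0 of 8 tested by edgeR (6 and 0 at an unadjusted p under 0.05, 3 and 0 by DESeq2). Procr is on this list and in these sums, at 0.941, 46.3, 0.362 and 72.3 CPM. It met the limits of the set and was left out by name, so its difference adds no support. Neutrophil lineage markers, 8 genes with 1636, 1028, 1790 and 485 CPM, fell in 4 and rose in 0 by edgeR (5 and 0 at an unadjusted p under 0.05, 4 and 0 by DESeq2). The part of a changed cell mix in the levels of the 18 genes was not tested.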

How the data were processed

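RNA was sequenced from 4 libraries of sorted mouse megakaryocytes, 1 per group, and the titles of the samples gave the groups. Per the labels' protocols, a MagMax-96 kit gave the RNA, and paired-end libraries came from the TruSeq Stranded mRNA kit. In the submitters' processing notes stand TopHat2 2.0.10, SAMtools, HTSeq and DESeq, with mm10 and GRCm38 as builds. The authors deposited, per Ensembl gene, the raw count of reads from HTSeq. Not given in the sources used here are the annotation release, whether counting used strand, and the number of mice per library. HTSeq's category lines were left out of totals and tests: reads with no gene were 32.1%, 36.1%, 34.9% and 36.2% of the reads given to a gene, to no gene or to several, over the 4 libraries, and ambiguous reads 0.489%, 0.448%, 0.531% and 0.532%.

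CPM was computed here as the count over summed gene counts. Symbols, biotypes and coordinates came from GENCODE M21 (GRCm38) and were found for 40340 of 41214 identifiers. Genotype and Cre model were fitted over all 4 libraries with edgeR 4.0.16 in R 4.3.3 (TMM, filterByExpr with a minimum count of 10, terms for genotype and Cre model, the quasi-likelihood F-test, Benjamini-Hochberg at 0.05). This tested 15063 genes. A gene could pass the filter through the libraries of 1 genotype alone, and the direction of its call was then largely fixed in advance. Each gene had 1 residual degree of freedom beside 6.25 from the prior, and the common biological coefficient of variation was 16.1%. The fit was tested on simulated data. Dividing a log2 fold change by the root of its F value gave its standard error. Inside a model, where groups hold 1 library, ratios of CPM carry 95% Clopper-Pearson intervals, and a library at 0 is set at a floor of 3 counts. Both reflect counting error only. Without molecular identifiers reads cannot be taken as separate molecules, so the intervals may be too narrow even for that.

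The member genes, the gene lists and the relatives were chosen with earlier results of these data known. Full values were to be given for Tmem215 and Cdhr1, the 12 members with the highest lower knockout level, those with at most 3 wild-type counts in all, the 6 each way that differed most between knockouts, and the 3 genes on each side of a limit. In each list or family up to 4 other genes with the smallest p-values were to be named. Other relatives and neighbours were chosen for naming with their values in view. Alternatives were other limits and scalings, DESeq2 1.42.0, other filters, models without a term, each library left out in turn, and, added after seeing the data, the older quasi-likelihood method. Promoters came from RefSeq's table for GRCm38.p6. A few listed genes are not reported here.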

Additional observations from a re-analysis of the deposited data

How the results depend on the processing

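The number of genes in the set follows its limits. It was 18 as reported, 6 with a wild-type limit of 0.5 CPM (Cdhr1, Zfp37, Sox5, Nrep, Irs1 and Prrt4), 56 with 2 CPM, 76 with a knockout limit of 2 CPM and 7 with 10 CPM (Tmem215, Cnrip1, Ctnna3, Shisa2, Cnr1, Etl4 and Chst2). It was 30 with no symbol left out, and 25 to 37 when the limits were set on any 3 libraries. Scaling by TMM or DESeq2 size factors gave 16, without Zfp37 and Zfp658. The genes called for genotype were 3348 as reported and 1935 with no filter on low counts. The labels give no replicate numbers, and the Cre model pairs the libraries as a block in the reported fit. Without the block 162 were called, and without any 1 library, when the block must be dropped, 509 to 883. The genes called for the Cre model were 2824 as reported, 1723 with no filter, 1 without the genotype term and 0 to 4 without any 1 library. Dropping a library mixes genotype into that contrast by construction. The log2 values then ran from -4.77 to 3.94 for Ctnna3, from -7.05 to 6.10 for Cdhr1, from -4.97 to 3.18 for Irs1 and from -2.19 to 5.01 for Tmtc1. DESeq2, its size factors, a mean of 5 CPM and the older method kept both counts within 1.5 times. In the ROSA-Cre wild-type, the shallower of the wild-types, 5 members had at most 3 counts, and there the depth limits the ratio.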

Other observations

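Of 17 families defined by symbol, 3 held a member, namely the cadherin superfamily, the Tmem series and the homeobox and SOX factors, and the other 14 held 0. These 3 members stood among 724 silent genes of the families (0.414%), beside 0.203% of all silent genes, and such small counts show no difference between families. Colec11, a collectin with 7, 1150, 2 and 487 counts (the PF4-Cre pair before the ROSA-Cre pair and wild-type before knockout in each, as in all lists of 4 values below), met the CPM limits but is left out by its symbol. Among the 14 were 385 solute carrier genes, of which 172 were in the silent base, and 103 genes of leucine-rich repeat proteins, of which 59 were. Of 236 solute carriers tested, 13.6% rose and 13.1% fell by edgeR's quasi-likelihood test at an adjusted p under 0.05. The shares over all genes tested were 12.6% and 9.59%. Genes of the TGF-beta and BMP axis rose in 11 and fell in 2 of 37 tested, and C-type lectins and collectins rose in 8 and fell in 1 of 19. Colec11 is counted among these 8. It met the limits of the set and passed the filter on low counts through its knockout libraries alone, so its call adds no support.

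Markers of blood lineages moved in both directions. Red cell markers summed to 347, 424, 394 and 548 CPM. Hbb-bs, a beta globin, had 436, 8189, 927 and 4956 counts and rose, as did Hba-a1 and Alas2, while Klf1, the red cell activator, had 414, 97, 136 and 18 counts and fell, as did Car1. Globin genes have near-identical copies, so their counts are uncertain. Megakaryocyte markers were called in both directions, with rises for Itgb3, Gp6 and Clec1b among others, and Pf4, Gp5 and Gp9 fell. Of 7 macrophage markers 3 fell, at summed levels of 51.1, 35.3, 59.1 and 23.8 CPM. Mast cell, basophil and eosinophil markers rose in 1 and fell in 2 of 8. B cell markers (29.2, 22.1, 27.4 and 21.0 CPM), T and NK cell markers (73.0, 36.4, 91.7 and 86.6 CPM) and muscle markers (0.795, 0.789, 0.965 and 0.412 CPM) gave 0 calls among 6, 3 and 1 genes tested by edgeR. At an unadjusted p under 0.05 the numbers were 3, 3 and 0, and by DESeq2 0, 1 and 0.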
